A study of Mus musculus with 11 samples.

Results

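The 4 Hox gene clusters of the mouse were examined for peaks of 5 transcription factors (TFs), ZIC2, OTX2, SOX2, POU5F1 and POU3F1. All ChIP-seq peaks with a midpoint between the first and the last listed Hox gene of a cluster, or within 50 kb on either side, were taken from the mm9 peak lists. This gave 588 of 1004445 peaks, 305 from EpiSC cultures and 283 from activin-free cultures, in 885 kb of DNA around 38 Hox genes of 22219 annotated protein-coding genes. The listed genes comprised 10 of the Hoxa cluster (chr6:52112350-52210874), 10 of the Hoxb cluster (chr11:96055630-96229570), 9 of the Hoxc cluster (chr15:102751534-102867274) and 9 of the Hoxd cluster (chr2:74506367-74603200).

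Hox genes encode homeodomain TFs that give cells along the body axis their regional identity. Their order on the chromosome follows their order of expression from head to tail, with low paralog numbers at the anterior end and high numbers at the posterior end, and they act with PBX and MEIS cofactors. In the epiblast before gastrulation the clusters are largely silent and held by Polycomb proteins, and their genes are opened one after another from the anterior end as the primitive streak forms. Of the profiled TFs, ZIC2 and OTX2 are known for roles in the epiblast and anterior neural plate, and SOX2, POU5F1 and POU3F1 for pluripotency and neural development.

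The cells were EpiSCs (epiblast stem cells) of a mouse 129/Sv line, which resemble the epiblast after implantation. The EpiSC cultures contained 20 ng/ml activin, and the cultures labelled EpiSCA were freed from activin 18 h before harvest. In both, cells were transfected transiently with a pCAGGS vector that drove 1 of the TFs fused to the biotinylation peptide BLRP together with the ligase BirA, and biotinylated chromatin was pulled down with streptavidin. The peaks therefore reflect an exogenous tagged TF in a mixed cell population, where binding in more cells and stronger binding per cell cannot be told apart. Each TF had 1 library in each culture. Replicate error is therefore unknown, and the 95% intervals given cover counting error only. Scores are on the MACS scale of -10 log10 p, from 50 to a ceiling of 3100, and were not scaled between libraries, whose depth is unknown.

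As a check of the labels, peaks covered 100% of the coding bases of the TF's own gene, with a score of 3100, in all 10 lists. The paper attributes the strong peak on the Sox2 gene to carried-over expression vector. Peaks on the own gene are therefore not read here as binding. Each list overlapped most with the list of the same TF in the other culture, except the EpiSCA POU5F1 list, of which 47.1% overlapped EpiSC POU5F1 peaks and 47.6% EpiSC POU3F1 peaks. The lists held between 62457 (EpiSC POU5F1) and 126908 (EpiSCA POU5F1) peaks, and the POU5F1 lists of the 2 cultures differed most in size.

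Sequences of selected peaks of the clusters are shown first, each as 200 bp of the plus strand of mm9 around a peak midpoint. High-scoring ZIC2 peaks of EpiSCs outside exons are shown with 1 from each cluster. None of them held the ZIC motif CCTGCTG in this window, and only 19% of all EpiSC ZIC2 peaks did, so its absence is usual.
Hoxa3 intron, ZIC2, chr6:52121242-52121441: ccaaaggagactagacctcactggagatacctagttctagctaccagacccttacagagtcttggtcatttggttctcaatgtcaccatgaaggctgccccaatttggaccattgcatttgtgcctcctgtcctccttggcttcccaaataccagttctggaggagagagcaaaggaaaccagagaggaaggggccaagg
Hoxb9 intron, ZIC2, chr11:96133652-96133851: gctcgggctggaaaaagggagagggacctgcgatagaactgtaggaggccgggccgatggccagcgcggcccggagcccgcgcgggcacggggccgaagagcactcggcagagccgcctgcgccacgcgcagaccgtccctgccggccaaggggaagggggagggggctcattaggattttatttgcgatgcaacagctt
Hoxc11 intron, ZIC2, chr15:102786477-102786676: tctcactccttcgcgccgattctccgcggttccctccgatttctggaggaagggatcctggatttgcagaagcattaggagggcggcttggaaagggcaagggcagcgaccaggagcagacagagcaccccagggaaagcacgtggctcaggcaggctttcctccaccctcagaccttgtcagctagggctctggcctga
Hoxd8 upstream region, ZIC2, chr2:74542433-74542632: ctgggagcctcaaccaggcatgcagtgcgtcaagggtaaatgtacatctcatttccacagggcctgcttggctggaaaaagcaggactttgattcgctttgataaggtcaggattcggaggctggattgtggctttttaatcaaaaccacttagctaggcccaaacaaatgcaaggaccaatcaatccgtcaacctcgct
The next sequence is the centre of the EpiSC OTX2 peak in the intron of Hoxc13. This was the highest-scoring OTX2 peak within 5 kb of a listed Hox TSS (transcription start site). It held no OTX motif GGATTA, which was in 23.5% of all EpiSC OTX2 peaks.
Hoxc13 intron, OTX2, chr15:102753347-102753546: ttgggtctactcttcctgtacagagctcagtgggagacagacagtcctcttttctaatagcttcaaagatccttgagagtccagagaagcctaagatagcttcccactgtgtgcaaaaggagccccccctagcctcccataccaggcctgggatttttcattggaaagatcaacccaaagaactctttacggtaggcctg
Sites with peaks of 3 or more TFs are shown with every motif match in capitals on either strand: CCTGCTG for ZIC, GGATTA for OTX, ACAAAG or ACAATG for SOX, and the octamers ATGCAAAT or ATGCATAT for POU TFs. The site beyond Hoxd13 is shown because it was the only one with 4 TFs in either culture, and its 2 octamer matches overlap on opposite strands.
Upstream of Hoxd13, POU5F1 centre in EpiSCs, chr2:74487190-74487389: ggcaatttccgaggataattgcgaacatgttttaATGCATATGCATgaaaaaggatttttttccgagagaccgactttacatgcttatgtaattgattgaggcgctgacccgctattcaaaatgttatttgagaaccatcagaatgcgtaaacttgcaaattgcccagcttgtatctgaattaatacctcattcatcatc
Upstream of Hoxb13, ZIC2 centre in EpiSCs, chr11:96051622-96051821: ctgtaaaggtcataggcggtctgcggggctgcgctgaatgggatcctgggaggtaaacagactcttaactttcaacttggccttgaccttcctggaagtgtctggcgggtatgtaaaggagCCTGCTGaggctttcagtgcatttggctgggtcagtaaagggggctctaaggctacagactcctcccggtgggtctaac
Upstream of Hoxd4, OTX2 centre in EpiSCA, chr2:74558309-74558508: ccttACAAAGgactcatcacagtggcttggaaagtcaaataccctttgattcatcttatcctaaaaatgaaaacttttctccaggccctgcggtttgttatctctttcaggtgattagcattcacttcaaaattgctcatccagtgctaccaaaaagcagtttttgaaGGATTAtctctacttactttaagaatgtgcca
Downstream of Hoxb4, SOX2 centre in EpiSCA, chr11:96188719-96188918: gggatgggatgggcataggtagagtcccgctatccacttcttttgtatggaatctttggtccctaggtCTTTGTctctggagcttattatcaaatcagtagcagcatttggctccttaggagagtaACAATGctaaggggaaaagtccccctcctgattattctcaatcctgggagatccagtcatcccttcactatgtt
Downstream of Hoxc12, OTX2 centre in EpiSCs, chr15:102773874-102774073: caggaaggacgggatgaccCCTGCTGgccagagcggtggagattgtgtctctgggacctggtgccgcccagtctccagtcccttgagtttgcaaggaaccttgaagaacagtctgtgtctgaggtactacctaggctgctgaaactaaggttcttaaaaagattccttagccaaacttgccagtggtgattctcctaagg
These matches are letters in a window and do not show that a TF was bound there.

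ZIC2 and OTX2 peaks were dense in the Hox clusters, and peaks of the other 3 TFs were sparse. In EpiSCs the clusters with their flanks held 175 ZIC2, 102 OTX2, 11 SOX2, 12 POU5F1 and 5 POU3F1 peaks. In the activin-free culture they held 156, 88, 17, 19 and 3 peaks in the same order. ZIC2 and OTX2 thus accounted for most peaks of the clusters in both cultures.

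The ZIC2 density was 19.8 peaks per 100 kb in EpiSCs, 4.31 times the genome density (interval 3.69 to 5.00). Without activin it was 17.6 per 100 kb and 4.29 times the genome (3.64 to 5.02). The OTX2 density exceeded the genome 2.97 times (2.42 to 3.60) in EpiSCs and 2.32 times (1.86 to 2.86) in EpiSCA. All 4 of these intervals lay above the genome density.

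SOX2 peaks reached 0.518 times the genome density (0.259 to 0.927) in EpiSCs and 0.581 times (0.338 to 0.930) in EpiSCA. For POU5F1 the ratios were 0.577 (0.298 to 1.01) and 0.450 (0.271 to 0.702), so the EpiSC interval just included the genome density. POU3F1 was the sparsest, with 0.133 times the genome density (0.0432 to 0.311) in EpiSCs and 0.0883 times (0.0182 to 0.258) in EpiSCA. Between the first and the last Hox gene only 1 POU3F1 peak was found in EpiSCs and 0 in EpiSCA, and the Hoxa and Hoxc clusters with flanks held 0 in both cultures. The background for an empty stretch was not small, since 22.9% of 200-kb windows of the genome had no POU3F1 peak in EpiSCs and 19.5% in EpiSCA.

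**Figure D1:**
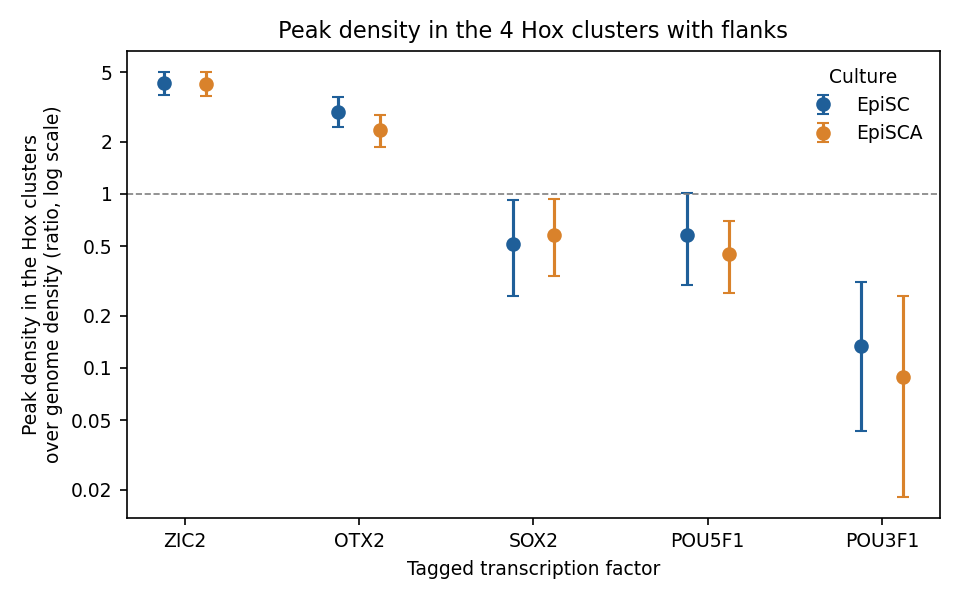
Ratio of the peak density in the 4 Hox clusters with flanks to the density over chromosomes 1 to 19, X and Y, for each TF in EpiSC (blue) and activin-free EpiSCA (orange) libraries, on a log axis, with bars for the 95% Poisson interval. ZIC2 and OTX2 lie between 2.32 and 4.31 times the genome, and SOX2, POU5F1 and POU3F1 between 0.0883 and 0.581 times.

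The clusters are richer in GC and in genes than the rest of the genome, and the part of these features in the densities was not tested. Their GC content with flanks was 46.0% to 48.1%, against 41.8% in the genome, and between 7.05% and 14.6% of all 200-kb windows were at least as GC-rich as a cluster. The listed Hox genes alone stood at 4.29 per 100 kb, against 0.837 protein-coding genes per 100 kb of the genome. Median GC contents of the peaks in the clusters were 55.1% for ZIC2, 46.5% for OTX2 and 39.1% for POU5F1 in EpiSCs, with similar values of 55.3%, 45.5% and 39.4% in EpiSCA.

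ZIC2 peaks lay between the Hox genes more than around the clusters. From the first to the last Hox gene there were 26.8 ZIC2 peaks per 100 kb in EpiSCs (22.4 to 31.8), against 7 (3.83 to 11.7) in the flanks on the anterior side and 15.5 (10.5 to 22.0) on the posterior side. The density among the genes was 3.83 times (2.20 to 7.20) that of the anterior flanks and 1.73 times (1.16 to 2.65) that of the posterior flanks. Without activin the 2 ratios were 3.02 (1.78 to 5.45) and 2.10 (1.33 to 3.44). The posterior flanks included a group of 13 ZIC2 peaks beyond Hoxa13 in EpiSCs and 10 in EpiSCA, visible in the map of the clusters.

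OTX2 peaks showed no such step. Their density was 12.4 per 100 kb among the genes and 10.5 in each flank in EpiSCs, a ratio of 1.18 (0.706 to 2.04) to either side. In EpiSCA the ratios were 1.00 (0.592 to 1.75) to the anterior and 1.31 (0.737 to 2.47) to the posterior flanks. These intervals include no difference and reach ratios of at least 1.75. As a share of the DNA among the genes, ZIC2 peaks covered 30.2% in EpiSCs and 24.9% in EpiSCA, against 4.93% and 4.06% of the genome.

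**Figure D2:**
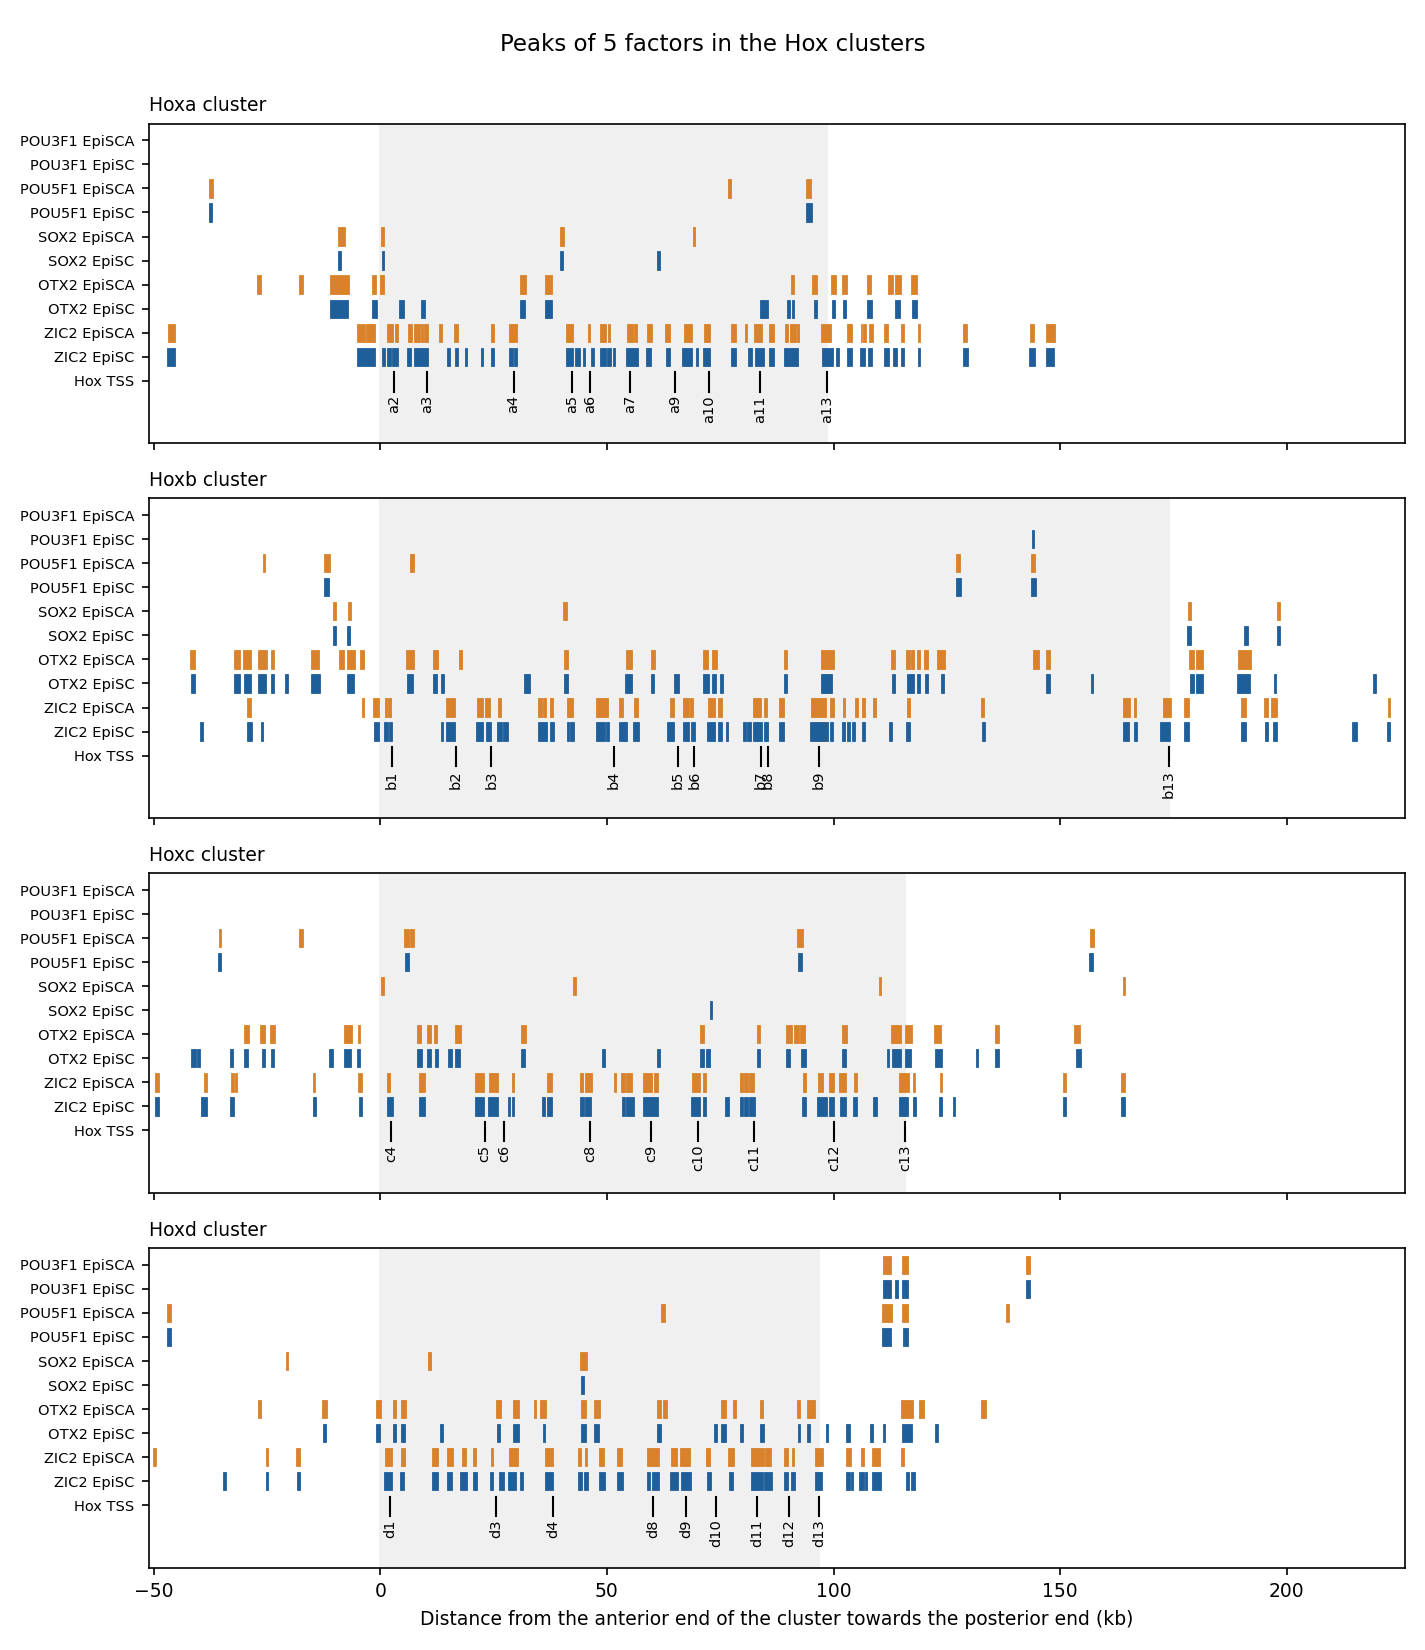
Peaks of the 5 TFs in EpiSC (blue) and EpiSCA (orange) libraries along the 4 Hox clusters, drawn to scale in kb from the anterior end, with Hox TSSs as black lines and the stretch from the first to the last listed gene in grey. ZIC2 rows are filled among the genes of every cluster, while the 5 EpiSC POU3F1 peaks lie beyond Hoxd13 except for 1 between Hoxb9 and Hoxb13.

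The 4 clusters differed little from one another in ZIC2. The ratio to the genome was 5.27 (3.89 to 6.99) at Hoxa, 4.22 (3.16 to 5.52) at Hoxb, 3.84 (2.72 to 5.27) at Hoxc and 3.99 (2.79 to 5.52) at Hoxd in EpiSCs. The highest and lowest, Hoxa and Hoxc, differed 1.37-fold (0.878 to 2.16), which is within counting error. In EpiSCA the ratios ran from 3.96 at Hoxd to 5.15 at Hoxa. Among 200-kb windows of the genome, 2.33% had at least the ZIC2 density of Hoxa in EpiSCs, 5.33% that of Hoxb, 6.29% that of Hoxc and 6.03% that of Hoxd. In EpiSCA these shares were 2.91%, 5.6%, 5.6% and 5.97%.

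For OTX2 the Hoxa cluster was the lowest in both cultures. Its 16 EpiSC peaks gave 2.08 times the genome density (1.19 to 3.37), whereas Hoxc had 30 peaks and 3.58 times (2.42 to 5.11). Hoxb and Hoxd lay between them at 3.10 (2.13 to 4.36) and 3.01 (1.91 to 4.51). The 1.73-fold difference between Hoxc and Hoxa had an interval of 0.911 to 3.39, so it did not exceed counting error. In EpiSCA Hoxa was again lowest at 1.76 times the genome density (0.986 to 2.91), and Hoxb was highest at 2.64 times (1.79 to 3.75). At least the OTX2 density of Hoxa was found in 12.9% of 200-kb windows in EpiSCs, that of Hoxb in 3.7%, that of Hoxc in 2.16% and that of Hoxd in 4.42%. The shares in EpiSCA were 14.6%, 3.66%, 6.69% and 4.55%.

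The next comparison was whether each Hox gene had a peak near its TSS. A ZIC2 peak lay within 5 kb of the TSS of 38 of 38 Hox genes in both cultures, where 74.2% of all protein-coding genes had one in EpiSCs and 72.5% in EpiSCA. Neighbouring Hox genes shared some of these peaks, 25 of 103 distinct ZIC2 peaks in EpiSCs and 21 of 92 in EpiSCA. The median Hox gene had 3 ZIC2 peaks in this range, against 1 for all protein-coding genes.

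An OTX2 peak lay within 5 kb of 29 Hox genes in EpiSCs (background 56.2%) and of 25 in EpiSCA (53.3%). The EpiSC interval of 60.8% to 87.0% lay above its background, and the EpiSCA interval of 49.9% to 78.8% included it. Both intervals count neighbouring genes as separate, although these lie in 4 clusters and share some peaks. They are therefore too narrow, and whether either share exceeds its background is not settled. Every Hox gene with an OTX2 peak also had a ZIC2 peak, which follows from the ZIC2 peaks at all 38 genes. Among all protein-coding genes, 49.2% in EpiSCs and 43.8% in EpiSCA had both. Of those with an OTX2 peak, 10942 of 12488 in EpiSCs and 9740 of 11839 in EpiSCA also had a ZIC2 peak. No OTX2 peak was found in either culture within 5 kb of Hoxa6, Hoxa7, Hoxa9, Hoxa10, Hoxb3, Hoxb7, Hoxc4 or Hoxc5.

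SOX2 peaks were within 5 kb of 5 Hox genes in EpiSCs (background 20.3%) and 7 in EpiSCA (28.1%). POU5F1 peaks were near 2 genes (16.8%) and 6 genes (29.3%), and POU3F1 peaks near 0 genes in both cultures (14.4% and 15.8%). If the genes are counted as separate, 0 in 38 allows a share of up to 9.18%, below both POU3F1 backgrounds. The genes lie side by side in 4 clusters, so this limit is too low and does not settle the comparison. Altogether 31 Hox genes in EpiSCs and 27 in EpiSCA had none of these 3 TFs near the TSS, against 62.5% and 51.1% of protein-coding genes.

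At closer range the picture split between ZIC2 and OTX2. Within 1 kb of the TSS, 35 Hox genes had a ZIC2 peak in EpiSCs (background 66.7%) and 34 in EpiSCA (65%). OTX2 peaks were that near to 12 (29.8%) and 11 genes (26.7%), close to the background, and both TFs to 11 genes in each culture (25.7% and 21.7%). No SOX2, POU5F1 or POU3F1 peak came within 1 kb of a listed Hox TSS, where 7.06%, 4.39% and 5.42% of all genes had one in EpiSCs and 11.7%, 9.09% and 6.75% in EpiSCA. The TSS itself was covered by a ZIC2 peak in 25 genes in EpiSCs (60.8%) and 21 in EpiSCA (58.9%), and by an OTX2 peak in 3 (8.86%) and 2 genes (8.71%). The TSS of 0 Hox genes was covered by a SOX2, POU5F1 or POU3F1 peak, which is rare in all genes, at 1.38%, 0.788% and 1.62% in EpiSCs and 4.76%, 1.89% and 2.9% in EpiSCA.

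**Figure D3:**
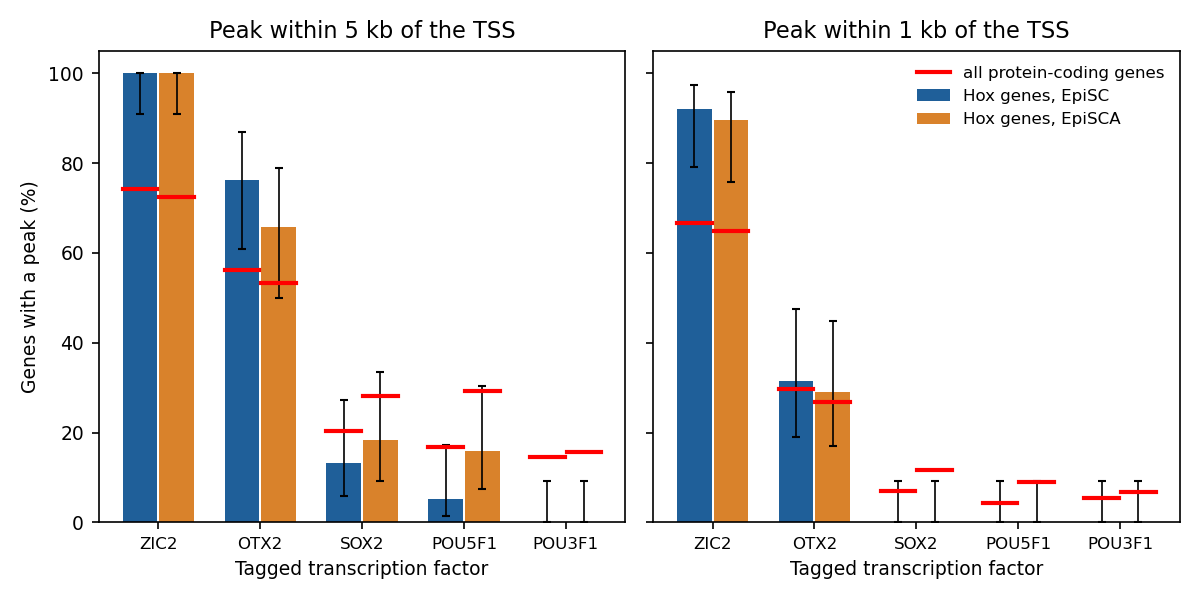
Share of the 38 Hox genes (bars, in %) with a peak within 5 kb (left) or 1 kb (right) of the TSS for each TF in EpiSC (blue) and EpiSCA (orange) libraries, with 95% Wilson intervals, and the share of all 22219 protein-coding genes as red lines. ZIC2 reaches 100% within 5 kb, and only ZIC2 and OTX2 have any Hox gene within 1 kb. The intervals count neighbouring genes as separate and are too narrow.

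Among anterior genes (paralog groups 1 to 4), the highest ZIC2 scores within 5 kb of the TSS in EpiSCs were at Hoxa2 and Hoxa3, which share a peak of 1834, and at Hoxb1 and Hoxd1. Hoxa2 is a hindbrain gene that patterns the skeleton of the pharyngeal arches, and Hoxb1 specifies the identity of a hindbrain segment. At Hoxb1 the score was 1611 in EpiSCs and 2735 in EpiSCA, from a peak 3.29 kb downstream of the TSS (chr11:96229755-96230951). Hoxd1, which acts in sensory neurons, had 1609 and 2233 from a peak over its TSS and first exon (chr2:74600555-74602276).

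Scores were lower at other anterior genes. Hoxb2 and Hoxb3 shared a peak of 883 and 1137, and Hoxb4 had 975 and 1139. Hoxd3 had 759 and 724, and Hoxd4 843 and 621. These anterior genes contribute to the hindbrain and the cervical vertebrae. Hoxc4 had the lowest EpiSCA score of all 38 genes, 114, after 250 in EpiSCs, and Hoxa4 went from 455 to 1033.

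Central genes (groups 5 to 8), which pattern the thoracic region, reached 1398 in EpiSCs and 2242 in EpiSCA at Hoxd8. The Hoxd8 peak lay over its TSS, and its centre is the sequence printed above for the Hoxd8 upstream region. Hoxb7 and Hoxb8 shared a peak of 1075 and 1666. Hoxb5 and Hoxb6 stood at the low end with a shared peak of 248 and 148. Hoxc5 and Hoxc6 shared a peak of 1081 in EpiSCs and 568 in EpiSCA. Hoxa5, a gene of the lung and the thoracic skeleton, and Hoxa6 shared a peak of 449 and 525.

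Posterior genes (groups 9 to 13) included the highest score of all. Hoxb9, which is expressed in the thoracic and lumbar region, had a ZIC2 peak of 2404 in EpiSCs over its TSS and intron (chr11:96132758-96134747) and of 3100, the ceiling, in EpiSCA. Hoxb13, a gene of the tail end and the prostate, had 1585 and 2775, and Hoxc13, a gene of hair and nails, 1429 and 2132. Hoxd11, which shapes the forearm and kidney with its Hoxa paralog, had 1716 and 2264. All 4 of these peaks covered the TSS in both cultures.

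Other posterior genes scored lower. Hoxd10, Hoxd12 and Hoxd13, of which Hoxd13 is a limb and digit gene, had 306, 421 and 364 in EpiSCs. In EpiSCA they had 326, 214 and 302. Hoxa13, the other digit gene, had 221 and 477. Hoxa10 and Hoxc11 were higher, at 1132 and 1069 in EpiSCs and 1310 and 1496 in EpiSCA, and Hoxd9 had 1204 and 1219.

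High scores were also found more than 5 kb from the listed Hox TSSs. A peak 7.29 kb downstream of the Hoxd8 TSS, in an exon of 1700109F18Rik (chr2:74549644-74550863), had 2069 in EpiSCs and 3100 in EpiSCA. Beyond Hoxa13, 45.2 kb upstream of its TSS, a peak (chr6:52255380-52256789) had 1699 and 3100. For OTX2, a peak 31.8 kb downstream of Hoxb1 (chr11:96258128-96259633) had 528 and 872.

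The scale of OTX2 scores cannot be set against that of ZIC2 scores, since it depends on the depth of the library. Hoxc13 had the highest OTX2 score within 5 kb of a TSS, 520 in EpiSCs and 580 in EpiSCA, from the intron peak printed above. Hoxb9 had 372 and 392, from a peak 1.66 kb upstream of its TSS. Hoxa13 had 294 and 395, Hoxc6 252 and 313, and Hoxb1 236 and 274. Hoxd1 went from 150 to 468, Hoxd3 had 245 and 194, and Hoxb6 had 240 and 90.1. The median of the highest scores over the 38 genes was 863 and 928 for ZIC2, and all protein-coding genes with a ZIC2 peak had medians of 691 and 840.

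**Figure D4:**
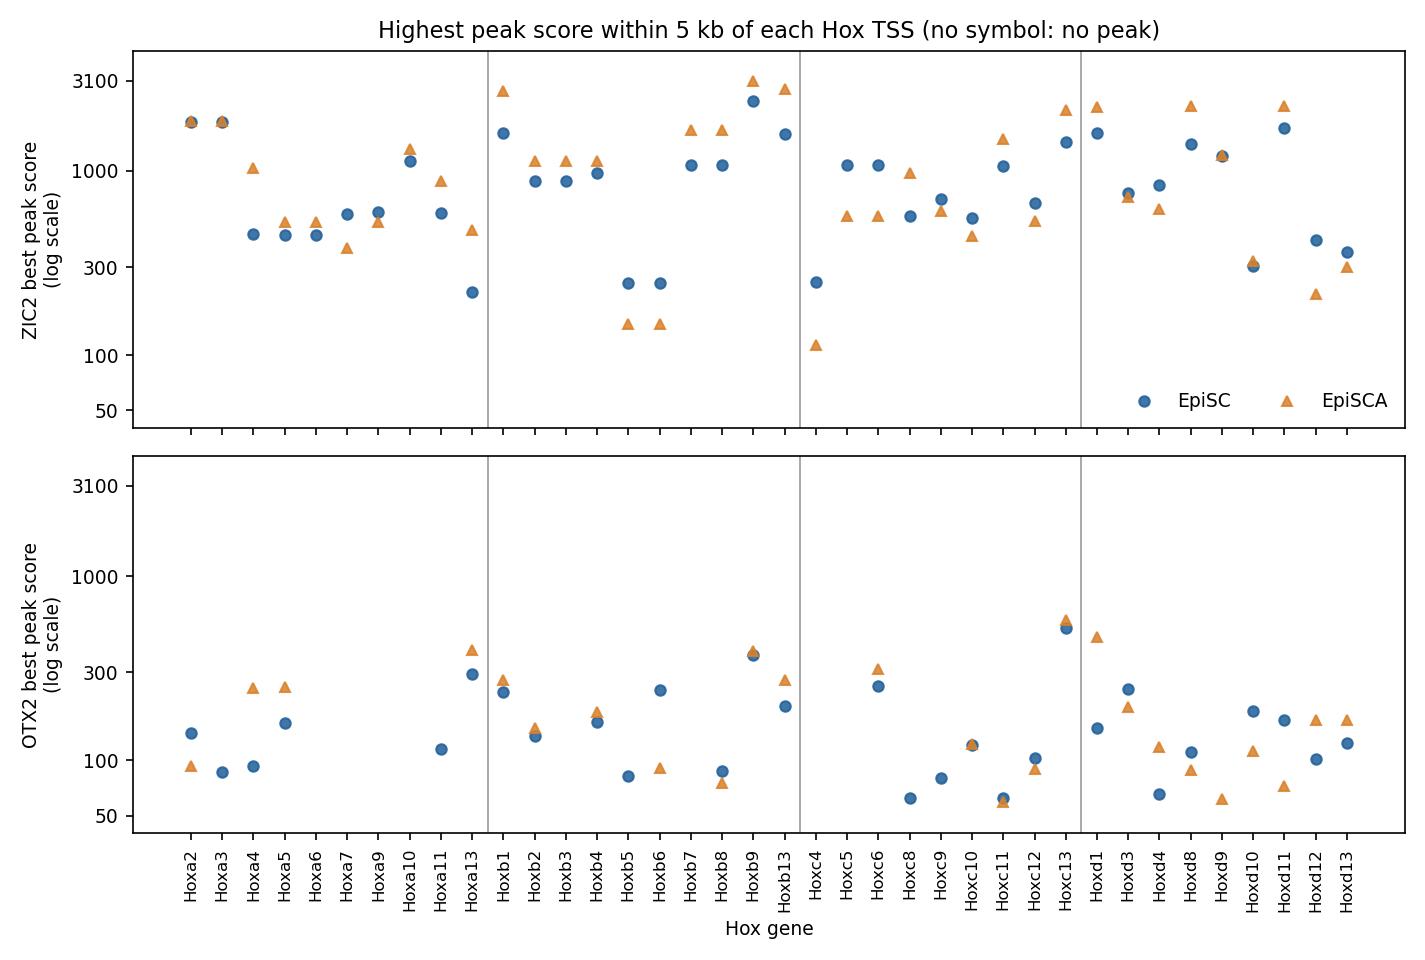
Highest MACS score (log axis) of a ZIC2 peak (top) and an OTX2 peak (bottom) within 5 kb of each Hox TSS, in EpiSC (circles) and EpiSCA (triangles) libraries, with genes in paralog order and no symbol where there was no peak. All 38 genes have a ZIC2 symbol, up to 3100 at Hoxb9, and OTX2 scores stay at or below 580.

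Anterior and posterior genes were compared next. A ZIC2 peak covered the TSS of 6 of 11 anterior, 6 of 11 central and 13 of 16 posterior genes in EpiSCs, and of 3, 5 and 13 in EpiSCA. Of all protein-coding genes 60.8% and 58.9% had one there, and whether the 3 groups differ was not tested. OTX2 peaks within 5 kb were found at 9, 7 and 13 genes in EpiSCs and at 8, 5 and 12 in EpiSCA.

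For densities, each peak among the genes was given to the Hox gene whose TSS was nearest along the cluster. ZIC2 had 29.4 peaks per 100 kb at anterior genes (21.5 to 39.2), 30.4 at central genes (21.1 to 42.5) and 23.0 at posterior genes (17.1 to 30.4) in EpiSCs. The anterior density was 1.28 times the posterior one (0.836 to 1.94) in EpiSCs and 1.10 times (0.706 to 1.72) in EpiSCA. For OTX2 the ratios were 0.991 (0.529 to 1.82) and 1.04 (0.532 to 2). No difference between anterior and posterior genes exceeded counting error for either TF, and the intervals leave room for differences of up to 2-fold.

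The posterior density depended on 1 stretch without Hox genes. Between Hoxb13 and Hoxb9 lie 74.0 kb (chr11:96058762-96132770), where ZIC2 had 14.9 peaks per 100 kb in EpiSCs and 13.5 in EpiSCA. Without this stretch the anterior to posterior ratio of ZIC2 was 1.08 (0.688 to 1.70) in EpiSCs and 0.914 (0.571 to 1.46) in EpiSCA. GC content differed little, at 48.7% for anterior, 50.1% for central and 49.2% for posterior DNA. Around the group 7 genes, Hoxa7 and Hoxb7, the OTX2 lists held 0 peaks in 17.4 kb in both cultures, where ZIC2 had 7 and 5. Among all the genes OTX2 had 12.4 peaks per 100 kb in EpiSCs and 10.5 in EpiSCA, so few would be counted in so short a stretch. The group was picked from all paralog groups after the values were seen, so its count of 0 does not set it apart.

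ZIC2 peaks lay over the coding sequence of most Hox genes. At least 50% of the coding bases were under ZIC2 peaks in 35 of 38 Hox genes in EpiSCs and 34 in EpiSCA, against 22.8% and 18.6% of protein-coding genes. The median Hox gene had 79.0% of its coding bases under ZIC2 peaks in EpiSCs and 74.4% in EpiSCA, and the median protein-coding gene 8.59% and 6.08%. All coding bases of Hoxa3, Hoxb2, Hoxb4, Hoxb6, Hoxb8, Hoxb13, Hoxc12, Hoxd3 and Hoxd4 were covered in EpiSCs, 100% in each. The genes under 50% in EpiSCs were Hoxa6 with 0%, Hoxc6 with 37.7% and Hoxd10 with 44.4%. In EpiSCA they were Hoxb7 with 0%, Hoxc6 with 18.0%, Hoxa2 with 34.0% and Hoxd10 with 34.4%.

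OTX2 differed from ZIC2 in this. OTX2 peaks touched coding bases of 1 Hox gene in EpiSCs and 3 in EpiSCA, and in none did they reach 50% (background 1.75% and 1.97%). Peak midpoints of ZIC2 lay in coding exons for 16.6% of the cluster peaks in EpiSCs and 20.5% in EpiSCA. OTX2 had 0 midpoints in coding exons, and 84.3% and 89.8% of its peaks lay outside annotated exons and the introns of the main Hox transcripts. Hox genes are short, with 2 exons in 34 of 38 and a median span of 3.10 kb against 14 kb for all protein-coding genes. The part of gene length and GC content in the coding coverage was not tested.

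The few SOX2 peaks near Hox genes lay in the 3′ part of the gene or upstream of the TSS. In EpiSCs the genes were Hoxa2, Hoxa5, Hoxa9, Hoxb13 and Hoxc10. The Hoxa2 peak (56.5 in EpiSCs and 87.9 in EpiSCA) lay in coding exon 2, and the Hoxa5 peak (120 and 81.6) in the 3′ untranslated region of exon 2. In the same kind of place were the Hoxa9 peak of EpiSCs (59.1) and the Hoxa10, Hoxc8 and Hoxc4 peaks of EpiSCA (74.6, 117 and 61.4). The highest SOX2 score of the clusters in EpiSCs, 210, was at a peak 4.51 kb upstream of Hoxb13, which had 307 in EpiSCA.

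POU5F1 peaks were found at Hoxa13 and Hoxc4 in EpiSCs, both outside exons. The Hoxa13 peak lay 3.96 kb downstream of the TSS (chr6:52206327-52207507) and had a score of 282 in EpiSCs and 970 in EpiSCA. The Hoxc4 peak lay 3.45 kb upstream and had 137 and 540. In EpiSCA weaker peaks were added near Hoxa10 (120), Hoxb1 (53.1) and Hoxd8 and Hoxd9 (63.9, shared), none of them above 120.

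Other POU5F1 peaks lay more than 5 kb from a listed Hox TSS. In the anterior flank of Hoxb, 14.4 kb downstream of Hoxb1, a peak (chr11:96240940-96241937) scored 484 in EpiSCs and 1769 in EpiSCA. Between Hoxb9 and Hoxb13 a peak (chr11:96101525-96102468) scored 126 and 810, and no ZIC2 or OTX2 peak overlapped it. Bases under POU5F1 peaks among the Hox genes were also under ZIC2 peaks for 0% in EpiSCs and 1.70% in EpiSCA. ZIC2 covered 30.2% and 24.9% of that DNA, which held only 5 and 9 POU5F1 peaks. With the flanks, 1 of 12 POU5F1 peaks overlapped a ZIC2 peak in EpiSCs, against 5.26% of the whole list. In EpiSCA it was 2 of 19, against 3.48%, so few POU5F1 peaks overlapped ZIC2 anywhere.

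Sites with peaks of 3 or more TFs were a small part of the sites in the clusters. Overlapping peaks of 1 culture were joined into sites, and 7 of 243 sites in EpiSCs and 5 of 229 in EpiSCA had 3 or more TFs. The share over the genome is not given, so these counts do not show whether such sites are rarer or commoner here than elsewhere. The site with 4 TFs lay 19.7 kb upstream of Hoxd13, beyond Evx2, a homeobox gene next to the cluster (chr2:74485294-74488079). In EpiSCs POU3F1 scored 1651 there, OTX2 576, POU5F1 537 and ZIC2 64.6. In EpiSCA they were 2449, 578, 1273 and 56.2 in the same order. The highest POU3F1 peak of the clusters lay here in both cultures, where its peaks were otherwise nearly absent. Scores of different TFs were not scaled and do not rank them at this site. Both ZIC2 scores lay near the lowest score of 50, so the count of 4 TFs rests on weak ZIC2 peaks.

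A neighbouring site 14.9 kb upstream of Hoxd13 (chr2:74490440-74492474) lay over an exon of Evx2. It had POU3F1 (455), POU5F1 (407) and OTX2 (58.9) peaks in EpiSCs. In EpiSCA POU3F1 had 475 and POU5F1 2476, and there was no OTX2 peak. The highest POU3F1 scores of all 4 clusters were at these 2 sites in both cultures.

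Sites with SOX2 combined with ZIC2 and OTX2 lay next to Hoxb13 and Hoxd4. The site 4.44 kb upstream of Hoxb13 (chr11:96050106-96052283) had 1100 for ZIC2, 197 for OTX2 and 210 for SOX2 in EpiSCs, and 1335, 273 and 307 in EpiSCA. Upstream of Hoxd4, at 6.66 kb (chr2:74557399-74559554), the scores were 203 for ZIC2, 142 for OTX2 and 116 for SOX2 in EpiSCs. In EpiSCA they were 224, 474 and 498, so OTX2 and SOX2 scored higher there and ZIC2 stayed similar. The printed centre of this site held both an OTX and a SOX match, 1 near each end.

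Further sites of this kind were found farther upstream of Hoxb13 in EpiSCs, at 23.8 kb (chr11:96031142-96032595) and 16.4 kb (chr11:96037764-96040665). The latter held an OTX2 peak of 710. In EpiSCA a site 10.5 kb downstream of Hoxb4 (chr11:96187813-96189162) had 230 for ZIC2, 110 for SOX2 and 75.5 for OTX2. Downstream of Hoxc12, at 7.03 kb (chr15:102773277-102775154), ZIC2 (397), OTX2 (136) and POU5F1 (102) formed a site in EpiSCs, with 281, 75.9 and 683 in EpiSCA.

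Overlap of ZIC2 and OTX2 peaks was counted from 1 shared bp. Of the ZIC2 peaks in the clusters 25.1% (19.3 to 32.1) overlapped an OTX2 peak in EpiSCs, against 14.8% of all ZIC2 peaks. In EpiSCA the shares were 22.4% (16.6 to 29.6) and 12.7%. Of the OTX2 peaks in the clusters, 42.2% overlapped a ZIC2 peak in EpiSCs (17.8% of all) and 35.2% in EpiSCA (12%). Of the OTX2 bases among the genes 26.6% were under ZIC2 peaks in EpiSCs, where ZIC2 covered 30.2% of the DNA. In EpiSCA the values were 19.2% and 24.9%. With the flanks they were 24.4% and 21.7% in EpiSCs and 16.0% and 17.8% in EpiSCA, so only the EpiSC overlap with flanks exceeded the ZIC2 cover. When 50% of both peaks had to overlap, the ZIC2 share fell to 6.29% (background 4.61%) in EpiSCs and 6.41% (3.34%) in EpiSCA.

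The cultures were compared by the peaks they shared, counted from 1 common bp. ZIC2 peaks of the clusters were mostly kept, with 138 of 175 EpiSC peaks (78.9%) overlapping an EpiSCA peak, equal to the share of 78.9% over the whole list. In the other direction 146 of 156 (93.6%) were shared, against 91.2%. For OTX2, 71 of 102 EpiSC peaks (69.6%, interval 60.1 to 77.7) were shared, below the 78.1% of the whole list. In the other direction 73 of 88 (83.0%, 73.8 to 89.4) were shared, above the 67.5% of the whole list. The Hox clusters had 102 OTX2 peaks in EpiSCs and 88 in EpiSCA, while the whole OTX2 list grew from 103281 to 114041. The intervals of these cluster densities overlapped, at 9.397 to 13.99 peaks per 100 kb in EpiSCs and 7.975 to 12.25 in EpiSCA. The share of the clusters with flanks under OTX2 peaks did not fall, at 11.7% in EpiSCs and 11.9% in EpiSCA. The median width of these peaks was 826 bp in EpiSCs and 1062 bp in EpiSCA.

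SOX2 and POU5F1 lists were longer without activin, both in the clusters and over the genome. Of the SOX2 peaks of the clusters, 8 of 11 EpiSC peaks were shared (77.6% over the whole list) and 8 of 17 EpiSCA peaks (55.9%). For POU5F1 the counts were 12 of 12 (98.3%) and 12 of 19 (47.1%). All 3 POU3F1 peaks of EpiSCA were shared (86.8%), and 3 of the 5 of EpiSCs (82.6%).

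Scores of shared peaks moved in the clusters much as they did elsewhere, with OTX2 as the exception. The median ratio of the EpiSCA to the EpiSC score was 1.07 for ZIC2 in the clusters and 1.09 over all shared peaks. For OTX2 it was 1.05 and 1.35. All 12 shared POU5F1 peaks had higher scores without activin, with a median ratio of 3.8 (range 1.51 to 7.64), but so did nearly the whole list, with 3.83. SOX2 ratios were 1.36 and 1.35. Because scores were not scaled for depth, these ratios compare libraries and not binding.

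Gene by gene, the highest ZIC2 score was higher without activin at 24 Hox genes and lower at 14, with a median ratio of 1.16. Over the whole list 57.1% of the shared ZIC2 peaks scored higher without activin. The ratios ran from 0.455 at Hoxc4 to 2.27 at Hoxa4, so these anterior genes lay at opposite ends. OTX2 scores were higher at 15 and lower at 9 of the 24 genes with a peak in both cultures, and the range was 0.376 at Hoxb6 to 3.13 at Hoxd1. Of all shared OTX2 peaks 71.4% scored higher. An OTX2 peak within 5 kb was present only in EpiSCs at Hoxa3, Hoxa11, Hoxb5, Hoxc8 and Hoxc9, and only in EpiSCA at Hoxd9.

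Binding motifs were counted in the central 200 bp of each peak on both strands. The ZIC motif CCTGCTG was found in 20 of 175 ZIC2 peaks in EpiSCs, 11.4% (7.52 to 17.0), against 19% of the whole list. In EpiSCA it was in 19 of 156, 12.2% (7.94 to 18.2), against 20.9%. The OTX motif GGATTA was in 8 of 102 OTX2 peaks in EpiSCs, 7.84% (4.03 to 14.7), against 23.5%, and in 10 of 88 in EpiSCA, 11.4% (6.29 to 19.7), against 21.7%. In these 4 lists, the peaks in the Hox clusters thus held the TF's own motif less often than the whole list, and the intervals lay below its share. In the central 400 bp the EpiSC OTX2 share was 27.5% (19.7 to 36.8) against 36.4%, and with a score of at least 100 the EpiSCA OTX2 share was 13.3% (6.26 to 26.2) against 21.2%, so in these 2 cases the interval included the whole list.

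**Figure D5:**
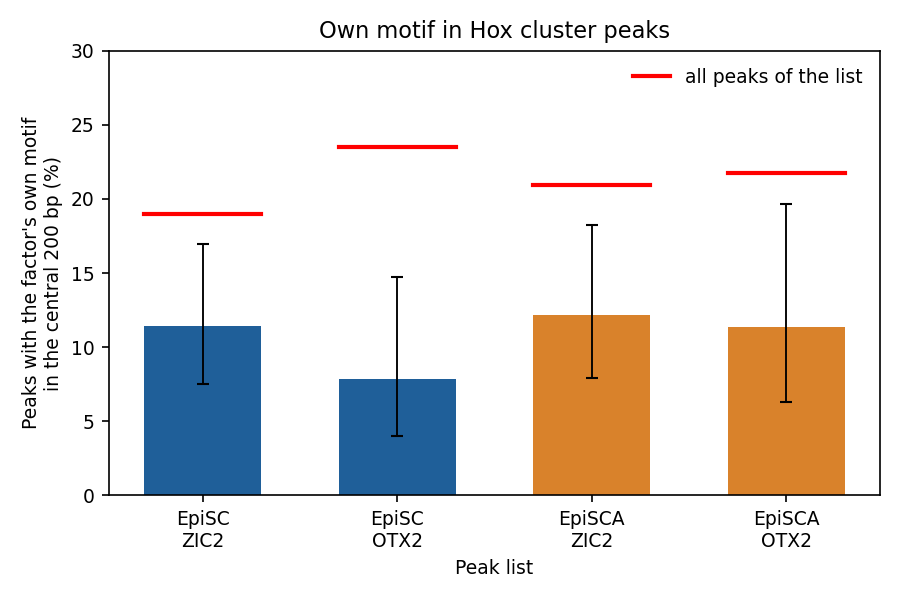
Share of ZIC2 and OTX2 peaks in the Hox clusters (bars, in %) with the TF's own motif in the central 200 bp, in EpiSC (blue) and EpiSCA (orange) libraries, with 95% Wilson intervals and the share over the whole list as red lines. The bars lie between 7.84% and 12.2%, below all 4 red lines.

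The Hox peaks were also nearer to genes than other peaks, with 63.4% of the ZIC2 peaks in EpiSCs within 5 kb of a protein-coding TSS against 22.4% of the whole list. Among ZIC2 peaks within that range, 9.91% (5.62 to 16.9) held the motif in the clusters and 14.4% in the whole list in EpiSCs, and 9.09% (4.86 to 16.4) and 15.1% in EpiSCA. Farther away the ZIC2 shares were 14.1% (7.58 to 24.6) against 20.3% in EpiSCs and 17.5% (9.82 to 29.4) against 22.7% in EpiSCA. All 4 of these ZIC2 intervals include the share of the whole list, so within a distance class the ZIC2 difference did not exceed counting error. For OTX2 peaks farther than 5 kb from a TSS, the share was 3.70% (1.02 to 12.5) in the clusters and 24.1% in the whole list. At the same distance class in EpiSCA it was 6.52% (2.24 to 17.5) against 22.0%. Within 5 kb of a TSS the OTX2 shares were 12.5% (5.86 to 24.7) against 20.7% in EpiSCs and 16.7% (8.32 to 30.6) against 20.0% in EpiSCA, which did not differ beyond counting error.

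The few SOX2 and POU5F1 peaks were not short of motifs. A SOX motif was in 6 of 11 SOX2 peaks in EpiSCs (57.2% of the whole list) and 11 of 17 in EpiSCA (55.3%). An octamer was in 5 of 12 POU5F1 peaks in EpiSCs (18.5%) and 5 of 19 in EpiSCA (13.5%). For POU3F1 it was in 1 of 5 (8.81%) and 0 of 3 (9.3%).

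The clusters also hold miRNA genes, shown by their mature sequences (RefSeq, GRCm38.p6) with the seed, bases 2 to 8, in capitals. They fall into 2 families with a shared seed and 1 single gene, and the miRNAs of the 2 families are known to target Hox transcripts. The 5p strands of miR-10a and miR-10b have the same seed.
mmu-miR-10a-5p: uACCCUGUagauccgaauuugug
mmu-miR-10b-5p: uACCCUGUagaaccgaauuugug
Another seed is shared by the 5p strands of the miR-196 genes, of which Mir196a-1 in Hoxb and Mir196a-2 in Hoxc give the same mature miRNA.
mmu-miR-196a-5p: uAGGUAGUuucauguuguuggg
mmu-miR-196b-5p: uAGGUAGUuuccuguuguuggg
Mir615, in the Hoxc cluster near Hoxc5, has a seed of its own on its 3p strand.
mmu-miR-615-3p: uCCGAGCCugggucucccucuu

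All 6 miRNA genes had a ZIC2 peak within 5 kb in both cultures. Among the Hox genes ZIC2 had 26.8 peaks per 100 kb in EpiSCs and 24.1 in EpiSCA, so a peak this near is common there. The count therefore does not set the miRNA genes apart. Mir196b, between Hoxa9 and Hoxa10, lay under a ZIC2 peak in both, with best scores of 1132 and 1310 within 5 kb. These best scores came from the peak over the Hoxa10 TSS and not from the one over Mir196b. Mir615 also lay under a peak in both, with best scores of 1081 and 568 within 5 kb. The EpiSC peak of 1081 ended before Mir615 and is not the one over it. Mir196a-1 lay under a ZIC2 peak in EpiSCs only, and its best score within 5 kb was 735 in EpiSCs and 177 in EpiSCA. The nearest ZIC2 midpoint was 0.985 kb from Mir10a, 1.82 kb from Mir10b and 2.83 kb from Mir196a-2 in EpiSCs, so the miR-10 genes were near ZIC2 peaks but not under them.

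Other protein-coding genes of the clusters were few. Evx2, beyond Hoxd13, had ZIC2 scores of 942 and 1012 within 5 kb of its TSS. The predicted genes 5730596B20Rik in Hoxa, Gm17649 in Hoxc and Gm14396 in Hoxd, which overlap or adjoin Hox genes, had ZIC2 peaks within 5 kb in both cultures, as did Gm53 between Hoxb9 and Hoxb13. Of all protein-coding genes 74.2% in EpiSCs and 72.5% in EpiSCA had one in this range. Ttll6, a tubulin-modifying enzyme at the posterior edge of Hoxb, had none within 5 kb of its TSS in either. That TSS lies outside the Hoxb flank, and 4 ZIC2 peaks in EpiSCs and 3 in EpiSCA overlapped the gene itself.

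Genes that work with or upstream of Hox genes were looked up in the same way. All 8 genes analysed for PBX, MEIS and PKNOX cofactors had a ZIC2 peak within 5 kb of the TSS in both cultures (background 74.2% and 72.5%). An OTX2 peak was found at 7 in EpiSCs (background 56.2%) and 5 in EpiSCA (53.3%). Meis1, a major partner of posterior Hox proteins, had ZIC2 scores of 1236 and 1563.

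Of 14 upstream regulators, which include the genes for retinoic acid receptors and enzymes and for CDX TFs, 13 had a ZIC2 peak in both cultures. OTX2 peaks were at 7 of them in EpiSCs (background 56.2%) and 4 in EpiSCA (53.3%). Rara, for a retinoic acid receptor, and Cyp26b1, for an enzyme that degrades retinoic acid, both had ZIC2 scores of 3100 in both cultures. Cdx4, an activator of posterior Hox genes, had no ZIC2 peak but SOX2 peaks of 114 and 314.

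The ParaHox genes, which descend from the same ancestral cluster as the Hox genes, had a ZIC2 peak in 5 of 6 cases and an OTX2 peak in 3 in both cultures. SOX2 peaks were at 4 in EpiSCs (background 20.3%) and 3 in EpiSCA (28.1%). Cdx1, Cdx2 and Cdx4 are also among the upstream regulators, so these lists overlap, and Cdx4 is the gene without a ZIC2 peak in both. Gsx1 had ZIC2 scores of 2735 and 3100, and Pdx1, a pancreas gene, 1483 and 2596. All 7 Polycomb genes had a ZIC2 peak, and 6 an OTX2 peak (background 56.2% and 53.3%), in both cultures. Ezh2, for the Polycomb methyltransferase, had peaks of all 5 TFs within 5 kb, with a ZIC2 score of 713 in EpiSCs. Against the shares of 74.2% and 72.5% for ZIC2 among all protein-coding genes, lists of this size do not stand apart.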

How the data were processed

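ChIP-seq was performed for 5 TFs carrying the BLRP tag, in EpiSCs and in EpiSCA, with 1 library each. The authors mapped reads with Bowtie2 to mm9 and called peaks with MACS1.4 against an input control, which was not analysed here. The deposited lists give the position of each peak and a score, which the authors' peak caller derived from the p-value. They contain no reads, so depth is unknown and no list was scaled to another.

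Peaks were assigned by midpoint to clusters with flanks of 50 kb. Each gene had 1 TSS, that of its longest coding transcript in GENCODE vM1. Windows of 5 kb and 1 kb around the TSS were used, overlap was counted from 1 bp, and 12774 windows of 200 kb that held a peak of any TF gave the background for densities. Intervals were Poisson, Wilson or conditional, at 95%. With 1 library in each case no test was possible. Motifs were searched for in mm9 on both strands. Counting steps were tested on simulated data.

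The members and the lists of other genes were chosen with earlier results of these data known. Named genes were the 38 Hox genes, other genes and miRNAs in the clusters, and 4 lists of related genes. Peaks described were taken from the highest of each TF in each cluster, not all of which are given, and from sites with 3 or more TFs, and other peaks at Hox genes were chosen after their values were seen. 1 protein-coding gene in the flanks and 1 gene of the lists are not reported here. Alternatives comprised no flank, a score of at least 100, the 50000 highest peaks of each list, a 1-kb window, 50% reciprocal overlap and other class limits. Territories between start codons, densities without the stretch between Hoxb13 and Hoxb9, and motif counts in 400 bp or at a score of at least 100 were chosen after seeing the data. The scripts ran in Python 3.11.15. Intervals came from scipy 1.17.1, arrays from numpy 2.4.6, sequence reading from pysam 0.24.0 and figures from matplotlib 3.10.9.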

Additional observations from a re-analysis of the deposited data

How the results depend on the processing

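Of 176 values recomputed under an alternative, 147 moved by less than their counting interval or 1.5-fold, and 29 moved further. Without flanks the ZIC2 density rose to 5.84 times the genome in EpiSCs and 5.87 in EpiSCA, and that of EpiSCA POU3F1 fell to 0. By cluster, the ZIC2 ratio was then 7.30 at Hoxa, 5.27 at Hoxc and 5.85 at Hoxd in EpiSCs and 6.28 at Hoxd in EpiSCA. Within 1 kb of the TSS, OTX2 peaks were at 12 and 11 Hox genes and SOX2 and POU5F1 peaks at 0. With a score of at least 100, SOX2 peaks were near 2 genes in each culture and EpiSCA POU5F1 peaks near 3, and ZIC2 peaks overlapped OTX2 peaks in 18.8% and 13.2%. With the 50000 highest peaks of each list, EpiSCA OTX2 peaks were near 14 genes, SOX2 peaks near 3 in EpiSCs and 2 in EpiSCA, and EpiSCA POU5F1 peaks near 2. The gene and overlap backgrounds given above belong to the full lists. Gene counts and overlaps at a score of at least 100 or from the 50000 highest peaks cannot be set against them. With 50% reciprocal overlap, 69.7% of EpiSC and 78.2% of EpiSCA ZIC2 peaks were shared between cultures, and ZIC2 peaks overlapped OTX2 peaks in 6.29% and 6.41%. In the central 400 bp the motif share was 18.3% and 19.9% for ZIC2 and 27.5% for EpiSC OTX2, and the shares over the whole lists rose as well. Beyond what these settings leave out by construction, the cause was not tested. The ratio of anterior to posterior density ran from 1.03 to 1.4 for ZIC2 and from 0.806 to 1.39 for OTX2 with the stretch between Hoxb13 and Hoxb9 kept. Without it the ratio was 1.08 in EpiSCs and 0.914 in EpiSCA for ZIC2 and 0.914 and 1.18 for OTX2, so it passed from above to below 1 for EpiSCA ZIC2. No paired analysis was possible because each TF had 1 library in each culture. Unknown depth limits every count of peaks near the lowest score, which bears most on SOX2, POU5F1 and POU3F1 with 3 to 19 peaks each.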
